A study of Mus musculus with 12 samples.

Results

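The type I hair shaft keratins are the acidic keratins that build the hair fibre. The genes Krt31, Krt32, Krt33a, Krt33b, Krt34, Krt35, Krt36, Krt39 and Krt40 were taken by symbol from a table of gene expression in mouse back skin. All 9 were present among its 18505 genes, and all 9 passed the filter on low values that left 15288 genes for testing. Expression was measured by RNA-seq of total RNA in 12 skin samples taken on day 10, with 4 samples in each group. The mice were wild-type male BALB/c animals aged 5 to 6 weeks, and the hair of their backs had been shaved before they were divided into groups. The control group had petroleum jelly on the shaved skin. The IMQ + NS group had imiquimod cream, a toll-like receptor agonist that induces psoriasis-like lesions, followed by normal saline under gauze and film. The IMQ + BZLF group had the same cream followed by Banzhilian formula, a mixture of plant and insect materials used in Chinese medicine. The dose of the formula in the sequenced samples is not given in the sources used here. Nothing says whether the 4 samples of a group came from separate mice, so the p-values measure the spread between these samples.

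Hair keratins are obligate heteropolymers. An acidic type I chain pairs with a basic type II chain, the pairs assemble into filaments, and cysteine-rich keratin-associated proteins crosslink the filaments as the fibre hardens. The genes switch on in sequence as cells rise from the matrix at the base of a growing follicle, and a follicle at rest makes no fibre. In human follicles, where the order has been mapped, K35 and its type II partner K85 appear earliest, in the matrix and the lowest cortex and cuticle. K31, K33A, K33B, K34 and K36 are cortex keratins, K32 is a keratin of the cuticle that covers the cortex, and K39 and K40 appear late, K40 in the cuticle.

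All 9 genes lie on the minus strand of chromosome 11 in the mouse genome build GRCm38. Krt33a, Krt33b, Krt34, Krt31, Krt32, Krt35 and Krt36 follow one another within 94.4 kb, from position 100011195 to 100105626. Krt39, from 99514114 to 99521338, and Krt40, from 99537485 to 99543158, lie 468036 bases away on the other side of a gap. Krt39 has 8 exons and each of the others has 7. The coding sequences of Krt33a and Krt33b were the most alike, with 93.3% identity, and those of Krt34 and Krt39 the least, with 57.6%.

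This likeness bears on the measurements, because a read that fits several genes cannot be placed from its sequence alone. The share of a transcript's 50-base words that another gene's transcript also holds was 33.1% for Krt34, 28.1% for Krt31, 24.2% for Krt33b and 21.9% for Krt33a. It was 3.95% for Krt35 and 0.432% for Krt36, and none of the words of Krt32, Krt39 and Krt40 occurred elsewhere. Longer reads leave less doubt, and those of the study are described as paired and of up to 150 bases. With words of 120 bases the share was 13.4% for Krt34, 11.3% for Krt33a, 10.1% for Krt31, 0.205% for Krt33b and 0 for the other 5 genes. With words of 150 bases it was 10% for Krt34, 9.52% for Krt33a and 6.35% for Krt31, and 0 for the rest. A 60-base stretch of exon 1 shows the difference. It codes for the start of the keratin rod, the helical part through which the chains pair, and it was picked after the sequences had been compared. The lines give it in the sense of the gene, from the GENCODE transcripts, with capitals at each base that differs from Krt33a.
Krt33a: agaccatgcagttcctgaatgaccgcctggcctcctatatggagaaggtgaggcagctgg
Krt34: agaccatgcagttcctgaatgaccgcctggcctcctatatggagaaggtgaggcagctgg
Krt31: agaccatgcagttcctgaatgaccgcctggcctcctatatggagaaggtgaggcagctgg
Krt33b: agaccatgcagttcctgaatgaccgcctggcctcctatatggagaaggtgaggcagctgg
Krt36: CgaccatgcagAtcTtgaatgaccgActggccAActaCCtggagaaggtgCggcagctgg
Krt35: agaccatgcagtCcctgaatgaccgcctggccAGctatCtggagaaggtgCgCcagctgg
Krt32: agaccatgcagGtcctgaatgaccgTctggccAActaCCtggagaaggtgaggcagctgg
Krt40: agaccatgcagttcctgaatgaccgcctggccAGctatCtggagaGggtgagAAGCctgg
Krt39: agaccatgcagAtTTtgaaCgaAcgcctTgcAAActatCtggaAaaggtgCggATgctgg
The stretch runs over chr11:100015916-100015975 in Krt33a and chr11:99520922-99520981 in Krt39. It was identical in Krt33a, Krt34, Krt31 and Krt33b, while Krt32 and Krt35 each differed at 6 positions, Krt40 at 8, Krt36 at 9 and Krt39 at 14. Values of Krt31, Krt33a and Krt34, and with short reads Krt33b, are therefore uncertain, since how reads that fit several of them were treated is not stated. Krt32, Krt39 and Krt40 have no such overlap.

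The values are FPKM, which are fragments scaled by transcript length and by the mapped total of the sample, as deposited. For 17948 of 17950 genes with 2 or more values above 0, the values were whole multiples of a step to within 0.02 of a whole number, so that read numbers could be recovered as the smallest whole numbers that fit. They are known only up to a common factor, and read numbers and counting intervals below take that factor as 1. The values of Krt31, Krt33a, Krt33b and Krt34, which share sequence, lay within 5.3e-05 of whole numbers, so up to that factor they hold no fractions of reads. The recovered reads summed to between 37630329 and 40185468 per sample, so the samples were read to nearly the same depth. The 9 genes rested on 1570 to 130773 reads in each imiquimod-treated sample, but on 2 to 918 in the controls, apart from 10284 for Krt35 in control replicate 2. Counting error is thus small in the lesions and large for the rarest transcripts of the controls. Control replicate 2 differed from the other 3 controls in many genes. Each comparison of the 9 genes with the controls is therefore also given without it. The tissue label held in every sample. The skin keratins and collagens of the marker lists (Krt5, Krt14, Krt10, Krt1, Col1a1 and others) were above 0 in all 12, and the 6 basal keratinocyte markers summed to at least 1023 FPKM.

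All 9 type I hair shaft keratins were higher in IMQ + NS skin than in control skin. They were tested with limma on log2(FPKM + 0.1) over all 15288 genes, with Benjamini-Hochberg adjustment. Calls needed an adjusted p under 0.05 as well as a change of more than 1 on the log2 scale. Among all genes tested, 11.4% were called higher. The members' log2 fold changes ran from 5.20 to 8.49, with a median of 7.68, against a median of 0.05 over all genes. Without control replicate 2 all 9 were again called, with a median of 8.02, where 14.4% of all genes were called higher. Every IMQ + NS sample was above every control for all 9, which was so for 23.7% of the genes tested. The controls had neither cream nor saline nor, as far as the methods say, the covering, so these cannot be told apart in the comparison. A rise in whole skin can come from more cells of a type or from more RNA in each cell, and these cannot be told apart in such samples.

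**Figure D1:**
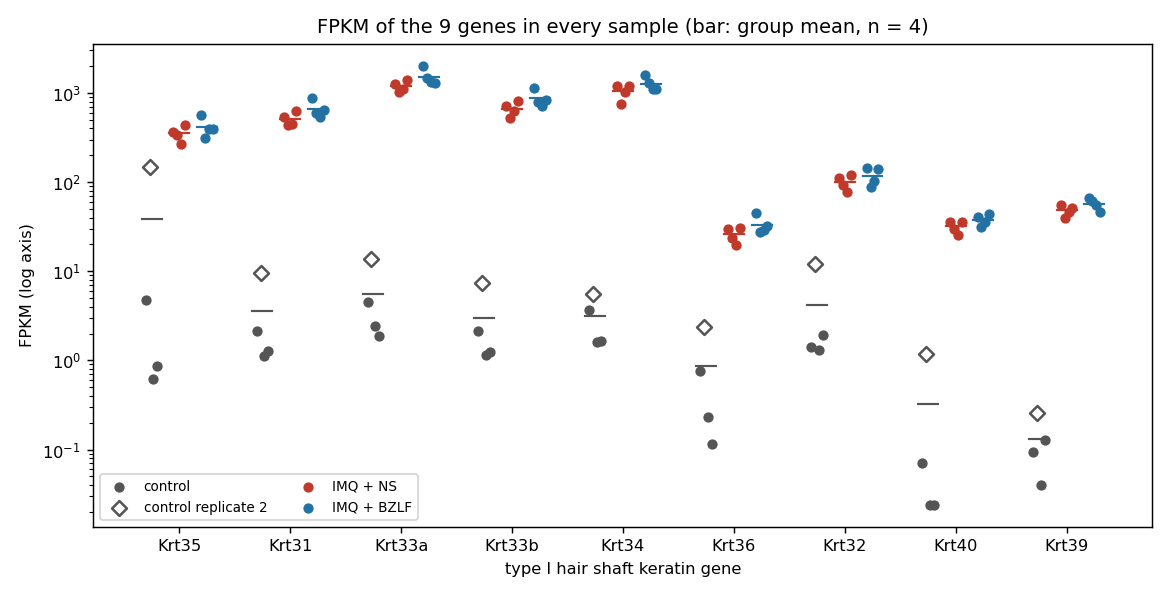
FPKM of each type I hair shaft keratin gene (log axis) in the 4 control, 4 IMQ + NS and 4 IMQ + BZLF samples. Points are samples, open diamonds are control replicate 2 and short bars are group means. Every imiquimod-treated sample lies above every control for each of the 9 genes, and the diamond of Krt35, at 149 FPKM, comes closest to the treated samples.

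Krt35, the earliest of these keratins to appear in the growing follicle, was the one whose controls differed most. It stood at 4.72, 149, 0.624 and 0.868 FPKM in control replicates 1 to 4. In the IMQ + NS samples it was 366, 341, 268 and 434 FPKM, and in the IMQ + BZLF samples 568, 314, 393 and 389 FPKM. The treated samples ran from 268 to 568 FPKM, while control replicate 2 lay far above the other controls and below all treated samples. The rise in IMQ + NS over control was 6.20 on the log2 scale (SE 1.47, limma adjusted p = 0.00701), with a 95% confidence interval from 2.85 to 9.54. Without control replicate 2 it was 7.86 (SE 0.59, limma adjusted p = 1.18e-05), so the fold change went from 73.3 to 232. Krt35 has the highest adjusted p of the 9 genes with and without that sample. Leaving out control replicate 3 or 4 in place of replicate 2 brought the fold change of Krt35 down to 39.2 and 43.1.

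Krt33a, Krt34, Krt33b and Krt31, all cortex keratins, had the highest mean levels in both treated groups. Krt33a reached 1262, 1012, 1113 and 1385 FPKM in the IMQ + NS samples, from 4.50, 13.7, 2.45 and 1.86 FPKM in control replicates 1 to 4. In the IMQ + BZLF samples it was 2006, 1480, 1314 and 1306 FPKM. Krt33a was the highest of the 9 genes in every treated sample. In IMQ + NS it rose by 8.13 on the log2 scale (SE 0.53, limma adjusted p = 7.97e-06), or 8.70 without control replicate 2.

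Krt34, a cortex keratin that comes on later, had the highest estimate on the scale of the test. It was 3.72, 5.60, 1.62 and 1.65 FPKM in control replicates 1 to 4 and 1191, 742, 1021 and 1209 FPKM in the IMQ + NS samples. The IMQ + BZLF samples had 1573, 1291, 1119 and 1105 FPKM. Control replicate 2 was the highest control here too, but only 1.5 times as high as control replicate 1, the next. Krt34 rose by 8.49 in IMQ + NS (SE 0.38, limma adjusted p = 9.23e-07), a fold change of 359, and 453 without control replicate 2. The interval of the log2 value, from 7.62 to 9.36, covers the estimates of Krt33a, Krt33b, Krt31 and Krt39, so Krt34 cannot be ranked above them. With a constant of 0.01 Krt39 had 8.66 and Krt34 8.54.

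Krt33b, the closest relative of Krt33a, was 2.12, 7.37, 1.15 and 1.26 FPKM in control replicates 1 to 4. It was 712, 516, 619 and 801 FPKM in IMQ + NS and 1137, 795, 711 and 827 FPKM in IMQ + BZLF. Its level was between that of Krt34 and that of Krt31 in all 8 treated samples. On the log2 scale Krt33b rose by 8.15 in IMQ + NS (SE 0.51, limma adjusted p = 6.69e-06), and by 8.72 without control replicate 2.

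Krt31, a cortex keratin next to Krt34 in the genome, was 2.12, 9.65, 1.13 and 1.29 FPKM in control replicates 1 to 4. In IMQ + NS it was 541, 435, 445 and 630 FPKM, and in IMQ + BZLF 887, 592, 538 and 640 FPKM. The lowest treated sample, at 435 FPKM, was far above the highest control, at 9.65 FPKM. In IMQ + NS the log2 fold change was 7.68 (SE 0.58, limma adjusted p = 1.88e-05), and the fold change went from 206 to 325 without control replicate 2.

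Krt36, also placed in the cortex, was the least abundant member in both treated groups. It was 0.763, 2.37, 0.230 and 0.116 FPKM in control replicates 1 to 4, which came from 61, 190, 18 and 9 reads. The IMQ + NS samples had 30.1, 23.8, 19.5 and 30.8 FPKM and the IMQ + BZLF samples 44.9, 27.4, 28.8 and 32.1 FPKM. Krt36 thus rose from a low level to a modest one. The log2 fold change in IMQ + NS was 5.36 (SE 0.67, limma adjusted p = 0.00025), and 6.03 without control replicate 2, where the fold change went from 41.2 to 65.1.

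Krt32, the cuticle keratin, had the lowest estimate on the scale of the test, close to that of Krt36. It was 1.43, 11.9, 1.31 and 1.91 FPKM in control replicates 1 to 4, and 110, 93.2, 78.2 and 119 FPKM in the IMQ + NS samples. In IMQ + BZLF it was 144, 88.4, 103 and 139 FPKM. Control replicates 1, 3 and 4 stood close together and control replicate 2 was 6.25 times as high as the highest of them. Krt32 rose by 5.20 in IMQ + NS (SE 0.62, limma adjusted p = 2e-04). Without control replicate 2 it was 5.92, with an interval from 5.53 to 6.32, which lies below the interval of Krt33a, from 8.09 to 9.32, in the same fit. The order of Krt32 and Krt36 is not settled, since Krt36 was lower with a constant of 1 (3.98 against 4.71) and without control replicate 4 (4.85 against 5.06).

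Krt40, a late cuticle keratin, was nearly undetected in 3 controls. It was 0.0704, 1.17, 0.0240 and 0.0242 FPKM in control replicates 1 to 4, from 6, 100, 2 and 2 reads. The IMQ + NS samples had 35.8, 30.1, 25.6 and 35.5 FPKM and the IMQ + BZLF samples 40.04, 31.3, 35.7 and 44.1 FPKM. The treated samples were close to one another, and only control replicate 2 had more than a handful of reads among the controls. The rise in IMQ + NS was 7.04 (SE 0.68, limma adjusted p = 6.99e-05), and the fold change went from 131 to 229 without control replicate 2. The constant of 0.1 exceeds the values of the other 3 controls, so these fold changes understate the rise.

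Krt39, which appears late in the fibre, had the lowest mean among the controls and the smallest standard error. It was 0.0941, 0.258, 0.0400 and 0.129 FPKM in control replicates 1 to 4, from 12, 33, 5 and 16 reads. It was 54.7, 39.6, 46.2 and 51.4 FPKM in IMQ + NS and 66.1, 61.9, 55.3 and 46.4 FPKM in IMQ + BZLF. Krt39 was therefore low in every control, replicate 2 included, and the treated groups overlapped. Krt39 rose by 7.78 in IMQ + NS (SE 0.26, limma adjusted p = 1.8e-07), and by 8.02 without control replicate 2. As with Krt40 the constant holds the fold change down, and with a constant of 0.01 the log2 value was 8.66 for Krt39 and 8.26 for Krt40.

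**Figure D2:**
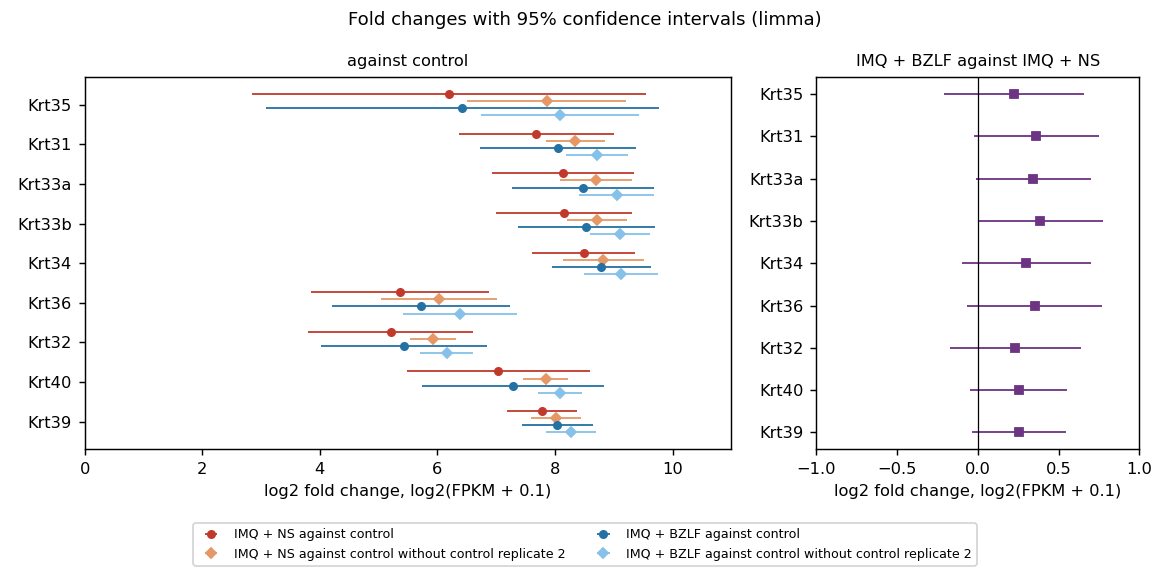
Log2 fold changes on log2(FPKM + 0.1) with 95% confidence intervals from limma, for IMQ + NS and IMQ + BZLF against control with all 4 controls (circles) and without control replicate 2 (diamonds), and for IMQ + BZLF against IMQ + NS (squares, right). The interval of Krt35 in IMQ + NS starts at 2.85 with all controls and at 6.49 without control replicate 2, and the intervals of the right panel all include 0.

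Among the controls, replicate 2 was the highest for all 9 genes, but by very different amounts. It was the highest control for 50.6% of all genes tested and the lowest for 26.4%, so the sizes tell more than the count. Its Krt35 value was 31.6 times the highest of the other 3 controls and 72.1 times their mean. On FPKM + 0.1, Krt35 ranked 10 among 15288 genes by this ratio. Krt40 was 16.7 times the highest of the others, Krt32 6.25 times, Krt31 4.55 times, Krt33b 3.47 times, Krt36 3.11 times and Krt33a 3.04 times. Krt39 was 2 times and Krt34 1.5 times as high. For Krt39 the counting intervals overlapped, from 22.7 to 46.3 reads in control replicate 2 and from 9.15 to 26 in control replicate 4 (95% Poisson intervals, which cover counting error only). On FPKM + 0.1, 7 of the 9 genes, all but Krt34 and Krt39, were more than 2-fold above the highest of the other controls. Over all genes tested this was so for 6.13%. With 1 sample against 3 these are values and not a test.

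Set against the lesions, control replicate 2 had more of the earliest keratin, Krt35, than of any other member. The other members did not follow the order of appearance, with the late Krt40 above the cortex keratins Krt31, Krt33a, Krt33b and Krt34. Its Krt35 value was 42.4% of the IMQ + NS mean. The cuticle keratin Krt32 stood at 11.9%, Krt36 at 9.12% and Krt40 at 3.69% of that mean. Krt31 was at 1.88%, Krt33a at 1.15%, Krt33b at 1.11%, and Krt34 and Krt39 both at 0.538%. Among the type II chains, Krt85, the partner of Krt35, was 94 FPKM in control replicate 2, or 20.2% of the IMQ + NS mean and 18.1 times the highest of the other controls. Krt82, a cuticle keratin, was at 4.88%, Krt87 at 1.58%, and the cortex keratins Krt81, Krt83 and Krt86 were between 0.475% and 0.683%. Krt84 was 0.117 FPKM in control replicate 2 and lay among the other controls. Krt84 and Krt85 lie outside the rule for named genes and were named after their values had been seen.

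**Figure D3:**
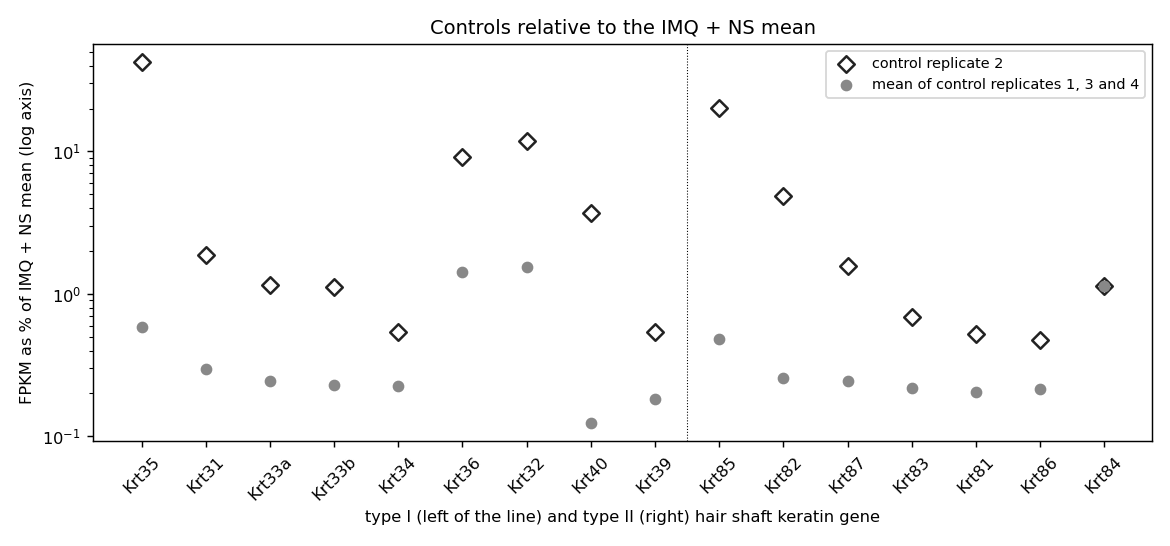
FPKM in control replicate 2 (diamonds) and the mean of the other 3 controls (dots) as a percentage of the IMQ + NS mean (log axis), for the 9 type I and the 7 type II hair shaft keratin genes. Control replicate 2 reaches 42.4% for Krt35 and 20.2% for Krt85. It stays under 2% for the cortex keratins Krt31, Krt33a, Krt33b and Krt34, but reaches 9.12% for Krt36, also placed in the cortex.

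The make-up of the type I keratins in control replicate 2 was unlike that of any other sample. Krt35 made up 74.2% of the summed FPKM of the 9 genes there, followed by Krt33a with 6.79% and Krt32 with 5.92%. In control replicates 1, 3 and 4 Krt35 made up 13.7% ± 9.17 (SD, n = 3). In the IMQ + NS samples it was 8.92% ± 1.33 (SD, n = 4) and in the IMQ + BZLF samples 8.3% ± 1.1 (SD, n = 4). The sum itself was 201 FPKM in control replicate 2, against 8.58 to 19.5 FPKM in the other controls and 3234 to 6466 FPKM in the treated samples. These shares rest on FPKM, which is scaled by transcript length.

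Other follicle genes were also high in control replicate 2, and their counts are to be read against the 50.6% of all genes. All 15 regulators of the matrix and shaft on the list, among them Dlx3 and Msx2, were above the 3 other controls, and summed to 476 FPKM against 195 to 207 FPKM. All 7 inner root sheath keratins in the table were above them, with 1771 FPKM against 15.7 to 51.4 FPKM. Of the keratin-associated protein genes, 39 of 56 were above them and 2 under them, with a sum of only 178.7 FPKM against 71.53 to 111.5 FPKM. In IMQ + NS that sum was 34361.5 to 50257.1 FPKM. All 7 markers of proliferating cells were higher, with a sum of 159 FPKM against 16.5 to 27.2 FPKM in the other controls and 117 to 141 FPKM in IMQ + NS. Markers of other tissues moved in the same sample. The 6 skeletal muscle markers summed to 3188 FPKM against 7420 to 7818 FPKM, and 5 of 6 adipocyte markers were under all 3 other controls, as were 26.4% of all genes. What part these markers have in the keratin values was not tested.

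**Figure D4:**
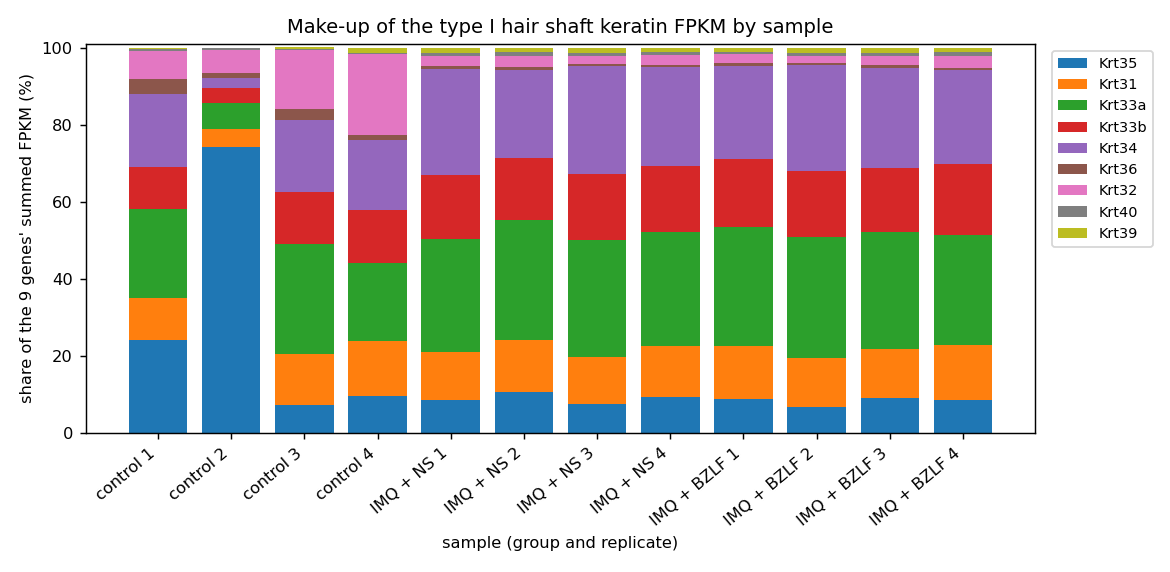
Share of each gene in the summed FPKM of the 9 type I hair shaft keratins, per sample. Krt35 takes 74.2% in control replicate 2, and all 8 treated samples share one make-up led by Krt33a and Krt34.

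The treated groups had nearly one composition. In IMQ + NS, Krt33a made up 30.2% ± 0.938, Krt34 26.1% ± 2.34, Krt33b 16.6% ± 0.506 and Krt31 12.9% ± 0.611 of the type I sum (SD, n = 4). In IMQ + BZLF the same genes made up 30.5%, 25.6%, 17.3% and 13.3%. Krt32, at 2.53% ± 0.299 in IMQ + NS, took up 14.5% ± 6.86 in control replicates 1, 3 and 4 (SD, n = 3). The order of mean levels per transcript length was the same in both treated groups, namely Krt33a, Krt34, Krt33b, Krt31, Krt35, Krt32, Krt39, Krt40 and Krt36. Within samples this order held in 4 of 4 IMQ + NS samples for each pair of neighbours, and in IMQ + BZLF it failed only once, where Krt40 was above Krt36 in 3 of 4 samples. Across samples, the values of neighbours overlapped for Krt33a and Krt34, Krt34 and Krt33b, Krt33b and Krt31, and Krt40 and Krt36 in IMQ + NS. In IMQ + BZLF, Krt31 and Krt35 overlapped as well. Neighbours in the control order overlapped throughout.

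The 9 genes did not differ detectably between IMQ + BZLF and IMQ + NS skin. This comparison addresses whether the formula, in place of saline, made a difference in imiquimod-treated skin. None of the 9 was called by limma in either direction, and none had an unadjusted p below 0.05, while 0.321% of all genes were called higher and 2.2% lower. limma voom on the recovered reads also called 0 of them. All 9 estimates were above 0, from 0.23 to 0.39 on the log2 scale, with a median of 0.30 against -0.02 over all genes. The type II hair shaft keratins, inner root sheath keratins and keratin-associated proteins also had medians above 0, given below. Among the 9, the largest estimate was that of Krt33b with 0.39 (limma adjusted p = 0.221), and its 95% interval ran from -0.00 to 0.77. For Krt33a the interval ran from -0.01 to 0.70, for Krt31 from -0.02 to 0.75 and for Krt34 from -0.10 to 0.70. Krt35 had 0.23 with an interval from -0.21 to 0.66, and Krt32 0.23 with an interval from -0.18 to 0.64. Krt36 had 0.35, from -0.07 to 0.77, Krt39 0.26, from -0.04 to 0.55, and Krt40 0.25, from -0.05 to 0.55. A rise of up to 0.77 or a fall of up to 0.21 on the log2 scale thus lies within the intervals.

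The upward shift leaned on a few samples. IMQ + BZLF replicate 1 was the highest of the 8 treated samples for 8 of the 9 genes, and IMQ + BZLF replicate 4 for Krt40. IMQ + NS replicate 2 was the lowest for 5 genes and IMQ + NS replicate 3 for 4. Relative to the mean of the 8 samples, the median over the 9 genes was 148% in IMQ + BZLF replicate 1, 75.2% in IMQ + NS replicate 2 and 75.6% in IMQ + NS replicate 3, and it lay between 96.8% and 108% in the other 5. Without IMQ + BZLF replicate 1 the log2 estimates fell to between 0.07 and 0.25. The groups overlapped for all 9 genes, whereas 4.24% of the genes tested were higher in every IMQ + BZLF sample than in every IMQ + NS sample.

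**Figure D5:**
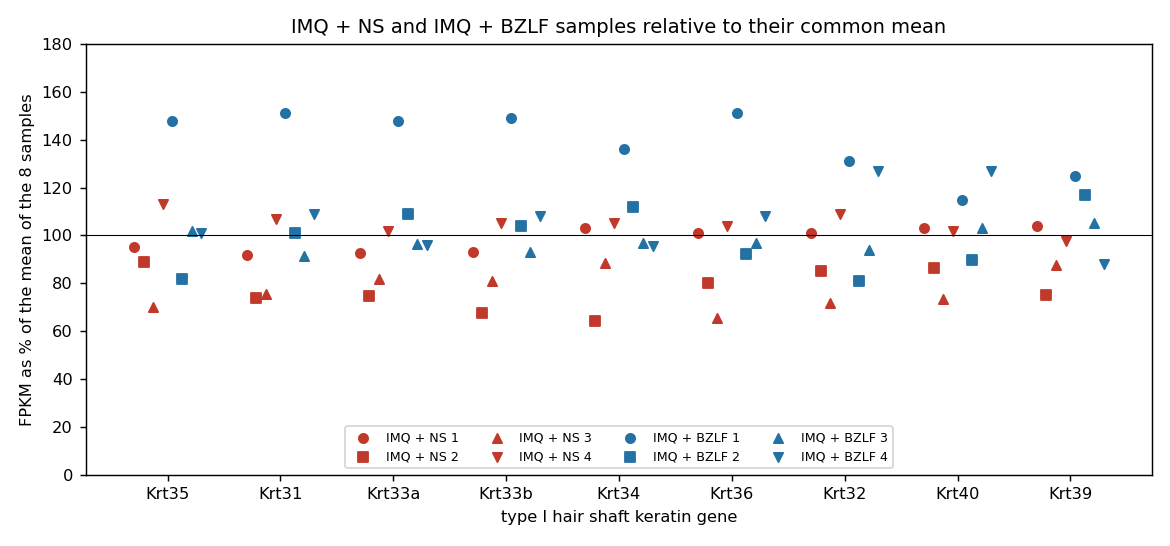
FPKM of each gene in the 8 imiquimod-treated samples as a percentage of their common mean (line at 100%). IMQ + BZLF replicate 1 (blue circles) is the highest for every gene but Krt40, IMQ + NS replicates 2 and 3 (red squares and triangles) lie low, and the other 5 samples mix.

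Against control skin, the IMQ + BZLF group gave the same calls as IMQ + NS. The comparison shares its controls with the first, so both move with them. All 9 genes were called higher, against 9.65% of all genes, and 12.7% without control replicate 2. The log2 fold changes ran from 5.43 for Krt32 to 8.79 for Krt34 with a median of 8.04 (highest limma adjusted p = 0.00648, for Krt35). Without control replicate 2 they ran from 6.16 to 9.12, and that of Krt35 went from 6.42 to 8.08.

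The type II partners moved alongside. All 7 type II hair shaft keratins were called higher in IMQ + NS, with a median log2 fold change of 7.97, or 8.63 without control replicate 2, and the most abundant were Krt83, Krt81 and Krt86. The ratio of the type I to the type II sum was 0.868 to 0.890 in IMQ + NS and 0.844 to 0.905 in IMQ + BZLF. In the controls it was 1.11, 1.60, 1.06 and 1.18 for replicates 1 to 4. Type I was thus the smaller sum in all treated samples and the larger in all controls, and highest in relation to type II in control replicate 2. Together the 9 genes made up 0.650% to 0.947% of all FPKM in IMQ + NS and 0.870% to 1.31% in IMQ + BZLF. In control replicate 2 they made up 0.0453%, and in the other controls 0.0019% to 0.0042%.

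Further genes of the fibre and its sheath rose with them in IMQ + NS. Of the keratin-associated protein genes, 55 of 55 tested were called higher, with a median of 8.51, or 8.90 without control replicate 2. All 7 inner root sheath keratins tested were called higher, led in abundance by Krt71, Krt25 and Krt27, with a median of 6.93. That median was 8.43 without control replicate 2. Of 12 structural genes of shaft and root sheath 9 were called higher, among them Tchh, the trichohyalin of the inner root sheath, by 7.14 (SE 1.15, limma adjusted p = 0.00093), or 8.50 without control replicate 2. Of 15 regulators of matrix and shaft 9 were called higher and 0 lower, or 12 without control replicate 2. Dlx3, a homeobox factor of hair differentiation, rose by 3.81 (SE 0.79, limma adjusted p = 0.00353) and Msx2, another, by 4.53 (SE 0.98, limma adjusted p = 0.00446). Foxn1, Hoxc13 and Lef1, transcription factors known to act on hair keratin genes and named here after their values had been seen, rose by 4.82 (SE 0.39), 4.11 (SE 0.92) and 3.23 (SE 0.80), with limma adjusted p of 2.79e-05, 0.00522 and 0.00829. Without control replicate 2 the log2 fold changes were 4.75 for Dlx3, 5.64 for Msx2, 5.24 for Foxn1, 5.18 for Hoxc13 and 4.17 for Lef1. Ctnnb1, the beta-catenin gene, had a log2 fold change of 0.62 and was under the limit on size. In IMQ + BZLF against IMQ + NS none of these hair lists had a call. Their median log2 fold changes there were 0.33 for inner root sheath keratins, 0.31 for keratin-associated proteins, 0.25 for structural genes and 0.15 for regulators. The type II hair shaft keratins had 0.35, also without a call, beside 0.30 for the 9 type I genes. Other structures of the hair unit did not rise as a whole. Of 6 sebaceous gland markers 0 were called higher and 3 fell in IMQ + NS, namely Awat1, Awat2 and Cidea. Among all 15288 genes tested, 1678 were called lower. Of 6 dermal papilla markers Corin rose while Fgf7, Rspo3 and Sox2 fell, and without control replicate 2 the counts were 2 and 2. Awat2, Rspo3 and Sox2 were named after their values had been seen.

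Keratins outside the hair shaft did not move in one way. Of the other type I keratins, which serve the epidermis and simple epithelia, 4 of 10 tested were called higher in IMQ + NS and 0 lower, and without control replicate 2 the counts were the same. The 4 were Krt14, Krt16, Krt17 and Krt42. Among them Krt14 rose by 2.08 (SE 0.19, limma adjusted p = 4.81e-05) and Krt17 by 2.48 (SE 0.34, limma adjusted p = 0.000399). Between IMQ + BZLF and IMQ + NS, 2 of the 10 fell, Krt14 by 1.54 (SE 0.22, limma adjusted p = 0.00571) and Krt16, a keratin of stressed epidermis, by 4.95 (SE 0.54, limma adjusted p = 0.00183). Of the 7 keratins of the companion layer and outer root sheath, 5 were called higher in IMQ + NS, namely Krt6a, Krt6b, Krt16, Krt17 and Krt75, and Krt6a, Krt6b and Krt16 fell in IMQ + BZLF against IMQ + NS. Krt6a, Krt6b, Krt16, Krt42 and Krt75 were named after their values had been seen. None of the type I hair shaft keratins was called lower in that comparison.

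Markers of other cells in the samples also shifted between control and IMQ + NS. Of 7 markers of proliferating cells 6 were called higher, all but Bub1, and of 6 melanocyte markers 5, all but Mlana. All 7 proliferation markers were called without control replicate 2, and their median went from 1.87 to 2.63. The melanocyte median went from 3.14 to 4.17, with 5 called in both. All 6 skeletal muscle markers fell, and their sum was 605 to 1408 FPKM in IMQ + NS. In the same comparison 1678 of all 15288 genes tested were called lower. Of 6 adipocyte markers 4 fell, namely Adipoq, Cfd, Cidec and Plin1, and of 6 dermal fibroblast markers 5, all but Pdgfra. The adipocyte count was 5 without control replicate 2, where 1871 of the 15288 genes tested were called lower. All 6 neutrophil markers rose. None of these markers was at 0 in any sample. The part of these shifts in the keratin values was not tested. The neutrophil markers also separated the treated groups, with 3127 to 9891 FPKM in IMQ + NS and 62.7 to 83.1 FPKM in IMQ + BZLF, while the hair shaft keratins of those groups overlapped. S100a8 and S100a9, which inflamed keratinocytes also express, made up 99.3% to 99.5% of that sum in IMQ + NS. The other 4 markers summed to 21.7 to 59.8 FPKM in IMQ + NS, 3.51 to 5.57 in IMQ + BZLF and 5.83 to 8.85 in the controls.

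The genes whose pattern was most like the mean of the 9 over the 12 samples were sought among 12648 others with a mean FPKM of at least 1. The measure was the root mean square difference of log2(FPKM + 0.1) after centring. Psors1c2 was closest with 0.286, followed by Krt82 with 0.311, Ly6g6d with 0.328, 2310061N02Rik with 0.345 and Calhm4 with 0.369. Krtap17-1 had 0.377, Krtap24-1 0.378 and Krt87 0.428. Psors1c2, for example, had a mean of 3.61 FPKM in the controls, 391.7 in IMQ + NS and 480.1 in IMQ + BZLF, and 8.14 FPKM in control replicate 2. By the same measure Krt40 was closest to the mean of the 9 with 0.21 and Krt31 followed with 0.293, while Krt32 was at 0.964 and Krt35 farthest with 1.14. Of the other members, Krt33a had 0.521, Krt33b 0.529, Krt39 0.604, Krt34 0.751 and Krt36 0.851. Only Krt40 and Krt31 were thus closer to the mean of the 9 than the last of these 8 outside genes. The 8 were picked as the closest of 12648 by this measure, and each member is itself part of the mean. How members and outside genes compare here therefore says nothing of how tight the 9 are as a group. The 12 samples share depth and grouping, so this likeness is a description.

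Upstream sequence was available for 7 of the 9 genes, from RefSeq on GRCm38.p6, as the 250 bases before the start. Genes that move together over such a range make it of interest to see what these windows share. Searched on both strands, TATAAA, one form of the TATA box, occurred in 5 of the 7 (12.4% of all 32851 promoters). CTTTGA, the core bound by LEF1, occurred in 5 (13.8%). CAATAAA occurred in 0 (4.2%), TCGTAAA in Krt40 alone (1 of 7, 0.478%) and GACGC in Krt31 alone (1 of 7, 22.6%). TTTTATG, picked after the sequences had been read, occurred in 6 (3.77%). The promoters of a cortex and a cuticle member are given in the sense of the gene, with matches to the TATA box, the LEF1 core and the motif added last in capitals. That of Krt31 is chr11:100050552-100050801 and that of Krt32 is chr11:100088270-100088519, both on the minus strand.
Krt31: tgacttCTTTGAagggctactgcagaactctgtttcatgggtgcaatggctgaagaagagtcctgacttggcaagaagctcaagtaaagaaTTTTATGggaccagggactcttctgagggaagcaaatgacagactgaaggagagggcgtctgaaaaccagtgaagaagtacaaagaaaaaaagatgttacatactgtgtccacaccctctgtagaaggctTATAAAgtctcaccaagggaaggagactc
Krt32: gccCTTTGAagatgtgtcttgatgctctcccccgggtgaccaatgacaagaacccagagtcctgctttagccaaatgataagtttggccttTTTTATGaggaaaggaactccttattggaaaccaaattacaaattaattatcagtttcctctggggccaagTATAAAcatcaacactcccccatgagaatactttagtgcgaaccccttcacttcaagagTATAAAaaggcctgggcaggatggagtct
In both genes CTTTGA stands far from the start (244 and 247 bases), TTTTATG in the middle (159 bases in each) and TATAAA close to it (29 bases in each), and Krt32 holds a further TATAAA at 88 bases. Krt33b and Krt34 had the same order, with CTTTGA at 247 and 240 bases, TTTTATG at 160 and 155 and TATAAA at 47 and 31, and Krt34 had a further CTTTGA at 133. Krt39 and Krt40, in the separate group of genes, lacked this order, and Krt36 held none of the 3 motifs in these exact letters. Krt36 and Krt39 hold the similar letters TATATAA close to the start, a form that was not searched. A match is a description of these letters and shows nothing of binding.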

How the data were processed

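RNA-seq of mouse skin gave 12 samples in 3 groups of 4. The authors deposited FPKM values, 1 per gene and sample, not pooled. The paper describes alignment with Bowtie2, FPKM from eXpress and tests with DESeq2, while the submitters' processing notes name fastp, HISAT2, HTSeq, R 3.2.0 and the build mm10. Library kits differ likewise (TruSeq Stranded Total RNA with Ribo-Zero, or VAHTS Universal V6), and which applies is not given in the sources used here. Treatment of reads that fit several genes is not stated either.

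Genes averaging 0.1 FPKM or more over the 12 samples were tested on log2(FPKM + 0.1) with limma 3.58.1 (R 4.3.3, trended moderation) for each pair of groups, with Benjamini-Hochberg adjustment over 15288 genes. The method was tested on simulated data. The constant understates fold changes of low genes. FPKM also fall when other transcripts take more of a library. Reads were recovered as the smallest whole numbers that fit the values (Python 3.11.15, pandas 2.3.3) and used for depth, 95% Poisson intervals and limma voom. Sequences came from GENCODE vM21 and RefSeq tables, with coding sequences aligned in Biopython 1.88.

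The members and lists were chosen with earlier results of these data known. Other genes were named as the 3 most abundant of each list and the 8 most alike in pattern, with exceptions marked. Alternatives were other constants, filters, scalings, moderation, a joint fit, the replicate block, each sample left out, and limma voom, which was chosen after seeing the data.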

Additional observations from a re-analysis of the deposited data

Results flagged for a closer look

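In 27 groups of 4 samples, each member in each group, the most distant sample was compared with Dixon's 95% critical value on log2(FPKM + 0.1). Control replicate 2 stood apart for Krt32, with a gap of 0.836 of the group's range, and for Krt40, with 0.863. Chance gives about 1 in 20 such results. Krt35, with the largest ratio of control replicate 2 to the other controls, had a gap of 0.644 of the range, under the critical value, and its other 3 controls ran from 0.624 to 4.72 FPKM.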

How the results depend on the processing

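Under 20 alternative settings for the single genes, all 9 genes stayed called higher in IMQ + NS and in IMQ + BZLF against control (highest adjusted p = 0.0209 and 0.0205), and none was called in IMQ + BZLF against IMQ + NS (lowest adjusted p = 0.104). Leaving out each sample in turn gave 9 calls against control each time, with log2 fold changes from 4.85 to 8.82 for IMQ + NS and from 5.13 to 9.12 for IMQ + BZLF, and 0 calls with estimates from 0.07 to 0.48 between the treated groups. With the replicate block, the log2 fold changes in IMQ + NS against control ran from 5.20 to 8.49 (highest adjusted p = 0.0111) and no call changed. Correlations of same-numbered samples ran from -0.15 to 0.26. Samples with different numbers were not compared in this way, so whether the replicate numbers pair samples is not settled.

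Sizes moved more than calls. In IMQ + NS against control, a constant of 1 brought the fold change of Krt35 to 48.7, of Krt36 to 15.7, of Krt39 to 43.1 and of Krt40 to 26. limma voom on recovered reads gave 423 for Krt39 and 324 for Krt40. Leaving out control replicate 2 moved Krt31, Krt32, Krt35, Krt36 and Krt40 by more than 1.5 times, up to 3.16 times for Krt35. Scaling shifted the median of all genes to at most -0.115, and 0 of the 9 genes changed direction. Depth limits Krt36, Krt39 and Krt40 in the controls, where a value can rest on 2 reads.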
